A study of Mus musculus with 6 samples.

Results

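The miR-15/16 family is a set of microRNAs (miRNAs), short RNAs that repress messenger RNAs, whose shared 5′ end pairs with transcripts of cell cycle and survival genes. It was followed here through 7 mature mouse miRNAs, mmu-miR-15a-5p, mmu-miR-15b-5p, mmu-miR-16-5p, mmu-miR-195a-5p, mmu-miR-322-5p, mmu-miR-497a-5p and mmu-miR-503-5p, named below without the species prefix. They were picked by name, and all 7 were found among the 649 entries of the deposited count table. The samples were skin tissue with a diabetic ulcer or a normal ulcer from mice of the inbred C57 strain, all labelled day 14, from which small RNA was sequenced. The series title places the work in diabetic foot ulcers of mice. No source used here gives the way diabetes was induced or the age and sex of the mice. Each group had 3 deposited columns, but the columns numbered 3 followed from the others and are not independent. The results therefore rest on diabetic ulcer 1 and 2 and normal ulcer 1 and 2 (n = 2 per group). The labels do not state whether the libraries are from different mice, and the p-values cover the spread of these libraries alone, which may be technical.

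The header of the authors' comparison table names the columns of the diabetic ulcer samples as control and those of the normal ulcer samples as case, which goes against the sample labels. The groups below follow the labels. If the header were right, every direction given here would turn round.

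A miRNA recognises its targets mainly through its seed, bases 2 to 8 from the 5′ end. Members of this family repress D-type and E-type cyclins and the kinase Cdk6, and so favour arrest of the cell cycle before DNA replication. They also repress the kinase Wee1 and the survival factor Bcl2. In humans, loss of the miR-15a and miR-16-1 genes is a frequent lesion of chronic lymphocytic leukaemia. In mouse hearts miR-195 takes part in the withdrawal of cardiac muscle cells from the cycle after birth. miR-322, the mouse counterpart of human miR-424, and miR-503 promote cell cycle exit in differentiating muscle cells through Cdc25A. miR-503 has also been studied in diabetic limbs, where it restrains growth of endothelial cells.

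The mature sequences show what ties the members together and where they part. All sequences are from RefSeq on GRCm38.p6, where all 7 members matched by name and letter for letter, and the seed is in capitals.
miR-15a-5p: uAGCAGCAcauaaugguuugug
miR-15b-5p: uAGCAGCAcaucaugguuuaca
miR-16-5p: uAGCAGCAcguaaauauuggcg
miR-195a-5p: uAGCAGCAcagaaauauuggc
miR-322-5p: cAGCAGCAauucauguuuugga
miR-497a-5p: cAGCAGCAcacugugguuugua
miR-503-5p: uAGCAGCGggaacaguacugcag

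Bases 2 to 7 were the same in all 7 members, and 6 of them shared the whole seed. miR-503-5p departed at the last seed base (A8G, numbered from the 5′ end and read from miR-16-5p to miR-503-5p). Behind the seed the closest pair was miR-16-5p and miR-195a-5p, identical at 19 of 21 positions and differing by G10A and U11G. miR-15a-5p and miR-15b-5p were identical at 18 of 22 positions, with the first difference at A12C. miR-503-5p was identical to the other members at 10 to 12 positions. Only 1 further entry of the table carried bases 2 to 7 of the family, miR-195b, which shares its first 16 bases with miR-195a-5p. It had 0 counts in both diabetic ulcer libraries, and 12 and 0 counts in normal ulcer 1 and 2. No source used here says how reads of such near-identical miRNAs were divided, so the levels of miR-16-5p, miR-195a-5p and miR-195b are uncertain to that extent.

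The members lie at 4 places of the mouse genome, in pairs. Coordinates are of the mature sequences on GRCm38 and count from 1, and the surrounding genes are from GENCODE release M21. On chromosome 14, minus strand, miR-15a-5p lies at 61632075 to 61632096 and a first copy of miR-16-5p at 61631936 to 61631957, both in an intron of the non-coding Dleu2. On chromosome 3, plus strand, miR-15b-5p lies at 69009775 to 69009796 and the second copy of miR-16-5p at 69009918 to 69009939, both in an intron of Smc4, which encodes a condensin subunit. On chromosome 11, plus strand, miR-497a-5p lies at 70234730 to 70234751 and miR-195a-5p at 70235062 to 70235082. On chromosome X, minus strand, miR-503-5p lies at 53054027 to 53054049 and miR-322-5p at 53054306 to 53054327. No annotated gene other than the miRNA genes overlapped the mature sequences of the chromosome 11 and X members. Within each pair the 2 members start 139 to 332 bases apart.

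Total miRNA counts were 9309055 and 10762761 in diabetic ulcer 1 and 2, against 8949104 and 13421603 in normal ulcer 1 and 2. Skeletal muscle miRNAs took 35.7% and 44.9% of these counts in the diabetic ulcer libraries and 17.2% and 66.1% in the normal ulcer libraries, so the share left for other miRNAs differed between libraries. Levels are therefore given as counts-per-million values (CPM) scaled by the trimmed mean of M-values (TMM), which sets libraries level over the bulk of miRNAs. Keratinocyte and epithelial miRNAs, which mark skin, were all listed (7 of 7), at 42817 and 19319 CPM in diabetic ulcer 1 and 2 and 52548 and 22988 CPM in normal ulcer 1 and 2. In such bulk samples fewer cells of a type and less RNA per cell cannot be told apart.

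The 7 members together held a small part of each library. Their reads were 0.287% of all counts in diabetic ulcer 1 (95% Wilson interval 0.283 to 0.290) and 0.205% in diabetic ulcer 2 (0.202 to 0.208), against 0.362% in normal ulcer 1 (0.358 to 0.366) and 0.154% in normal ulcer 2 (0.152 to 0.156). Such intervals hold the counting error of reads alone. PCR copies of a molecule are counted as separate reads, so the intervals may be too narrow for a count of molecules. On the TMM scale the summed level was 2410 and 2024 CPM in diabetic ulcer 1 and 2, against 2722 and 2461 CPM in normal ulcer 1 and 2. Both diabetic ulcer libraries were lower on that scale, with diabetic ulcer 1 only just under normal ulcer 2. By library totals the order changed, and both diabetic ulcer libraries lay between the normal ulcer libraries. Across the 4 libraries the sum averaged 2217 ± 273 CPM in diabetic ulcer and 2592 ± 184 CPM in normal ulcer (SD, n = 2 each).

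miR-16-5p supplied most of the family's reads. It made up 74.4% of them in diabetic ulcer 1 (95% Wilson interval 73.9 to 74.9) and 66.7% in diabetic ulcer 2 (66.0 to 67.3), against 71.8% in normal ulcer 1 (71.3 to 72.3) and 72.6% in normal ulcer 2 (72.0 to 73.2). miR-15b-5p followed at 10.9% and 15.5% in diabetic ulcer 1 and 2 and 10.6% and 11.2% in normal ulcer 1 and 2. Diabetic ulcer 2 thus had the smallest share of miR-16-5p and the largest share of miR-15b-5p. These shares need no scaling between libraries.

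The order of levels was nearly fixed. Mature lengths run from 21 to 23 bases, so counts compare members almost per molecule, apart from differences in how well each sequence is captured in a library. In all 4 libraries miR-16-5p was highest, then miR-15b-5p, miR-195a-5p and miR-322-5p, and miR-503-5p was lowest. miR-497a-5p and miR-15a-5p swapped places, each being ahead in 2 libraries, and their levels did not differ beyond the spread of libraries. miR-16-5p stood 4.30 to 6.79 times above miR-15b-5p within a library. miR-15b-5p stood only 1.02 to 1.76 times above miR-195a-5p, and their ranges over libraries overlapped, as did those of miR-322-5p and miR-497a-5p. By mean level miR-16-5p ranked 43 among the 649 entries and miR-503-5p ranked 222.

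**Figure D1:**
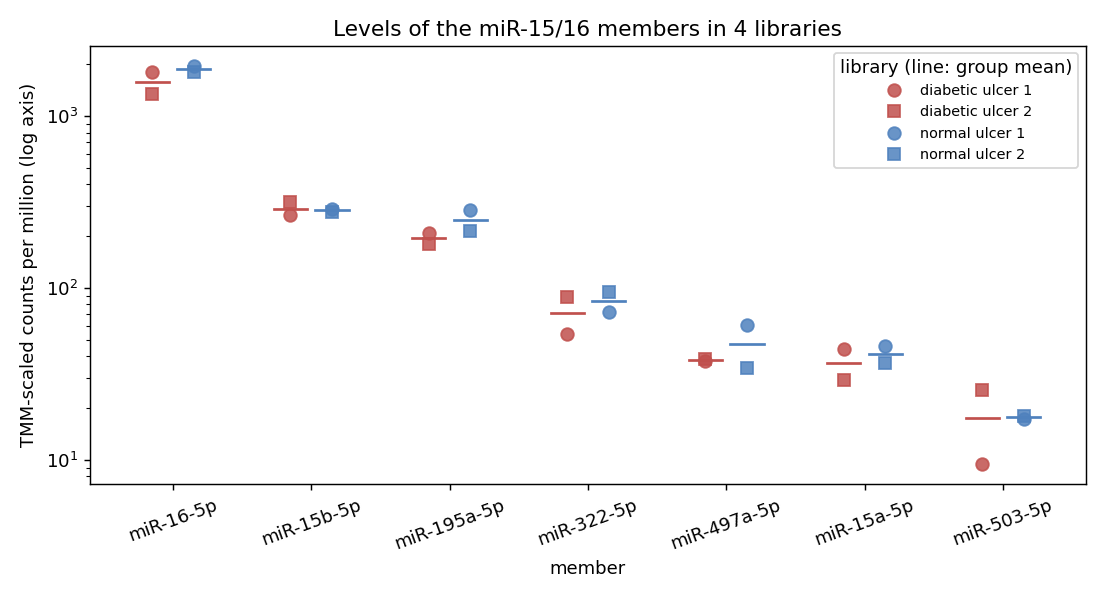
Level of each miR-15/16 member in 4 libraries, as TMM-scaled CPM on a log axis, with diabetic ulcer in red left of normal ulcer in blue and lines at the group means (n = 2). miR-16-5p lies at 1349 to 1954 CPM and miR-503-5p at 9.49 to 25.6 CPM, and miR-195a-5p alone has both diabetic ulcer libraries below both normal ulcer libraries.

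The comparison the labels imply asks which miRNAs differ between diabetic and normal ulcer skin. None of the 7 members passed edgeR's quasi-likelihood test, in which 0 of 443 tested miRNAs (0%) had a Benjamini-Hochberg adjusted p under 0.05. At an unadjusted p under 0.05 there were 4 of 443 (0.903%), none of them a member. DESeq2 and limma-voom also called 0, with 3 and 4 miRNAs at an unadjusted p under 0.05. Without normal ulcer 1, edgeR called 6 miRNAs, again none of them a member. All 7 members passed the filter on low counts.

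The estimates of the members were small beside their errors. Of the 7, 6 were below 0 and 1 above 0 (log2 difference, diabetic minus normal), where 52.4% of all tested miRNAs were below 0. Their median was -0.22, against -0.02 over all tested miRNAs. Pairs of members share a genome locus and all share a seed, so they are not separate replicates of the condition. The adjusted p of each member was 0.999. With 2 libraries per group, an exact permutation test of a single value cannot give a two-sided p below 0.333, so none was run.

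miR-16-5p, the most abundant member, had 1793 and 1349 CPM in diabetic ulcer 1 and 2, against 1954 and 1788 CPM in normal ulcer 1 and 2. Diabetic ulcer 1 lay level with the normal ulcer libraries and diabetic ulcer 2 lay below all others, so the groups overlapped. The log2 difference was -0.25 ± 0.27 (SE), a fold of 0.840 with a 95% interval of 0.523 to 1.35. Its 2 gene copies give the same mature sequence, so its reads cannot be divided between chromosomes 3 and 14.

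miR-15a-5p, processed from the same Dleu2 transcript as the first copy of miR-16, had 44.2 and 29.0 CPM in diabetic ulcer 1 and 2, against 45.9 and 36.6 CPM in normal ulcer 1 and 2. The groups overlapped, with library 1 above library 2 in each. Its log2 difference was -0.17 ± 0.34 (SE). The ratio of miR-15a-5p to miR-16-5p stayed within 0.0205 to 0.0246 over the 4 libraries, so the 2 kept nearly the same proportion.

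miR-15b-5p, encoded beside the second copy of miR-16, had 264 and 314 CPM in diabetic ulcer 1 and 2, against 289 and 275 CPM in normal ulcer 1 and 2. Its diabetic ulcer libraries lay on either side of the normal ulcer libraries. The log2 difference was 0.03 ± 0.24 (SE), and the 95% interval of the fold ran from 0.678 to 1.55. The ratio of miR-15b-5p to miR-16-5p was 0.147 and 0.233 in diabetic ulcer 1 and 2, against 0.148 and 0.154 in normal ulcer 1 and 2. Diabetic ulcer 2 stood apart in that ratio and the other 3 libraries lay close together.

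miR-195a-5p, of the chromosome 11 pair, had 208 and 179 CPM in diabetic ulcer 1 and 2, against 283 and 215 CPM in normal ulcer 1 and 2. It was the 1 member whose diabetic ulcer libraries were both lower, which 12.0% of all tested miRNAs also showed, and diabetic ulcer 1 lay just under normal ulcer 2. By library totals its groups overlapped. The log2 difference was -0.36 ± 0.26 (SE), with a 95% interval of the fold from 0.495 to 1.22 and an unadjusted p of 0.217 in edgeR.

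miR-497a-5p, its neighbour, had 37.4 and 38.5 CPM in diabetic ulcer 1 and 2, against 60.7 and 34.1 CPM in normal ulcer 1 and 2. Normal ulcer 1 alone was high and the other 3 libraries were alike. The log2 difference was -0.32 ± 0.36 (SE), and without normal ulcer 1 it was 0.15. The ratio of miR-195a-5p to miR-497a-5p was 5.57 and 4.65 in diabetic ulcer 1 and 2 and 4.66 and 6.30 in normal ulcer 1 and 2.

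miR-322-5p, of the X-linked pair, had 53.8 and 88.9 CPM in diabetic ulcer 1 and 2, against 72.0 and 94.7 CPM in normal ulcer 1 and 2. Library 2 was higher in each group on the TMM scale, whereas by library totals normal ulcer 1 was the highest, and the groups overlapped on both. The log2 difference was -0.22 ± 0.34 (SE), and it took a positive sign without diabetic ulcer 1 (0.10), without normal ulcer 2 (0.10) and over all 6 columns (0.16).

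miR-503-5p, the X-linked member with the differing seed, had 9.49 and 25.6 CPM in diabetic ulcer 1 and 2, on 105 and 279 counts, against 17.3 and 18.0 CPM in normal ulcer 1 and 2, on 206 and 151 counts. The diabetic ulcer libraries were the lowest and the highest of the 4. The log2 difference was -0.01 ± 0.52 (SE), and its fold had the widest 95% interval of the members, from 0.403 to 2.45. These data therefore leave room for a rise or a fall of miR-503-5p of more than 2-fold.

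**Figure D2:**
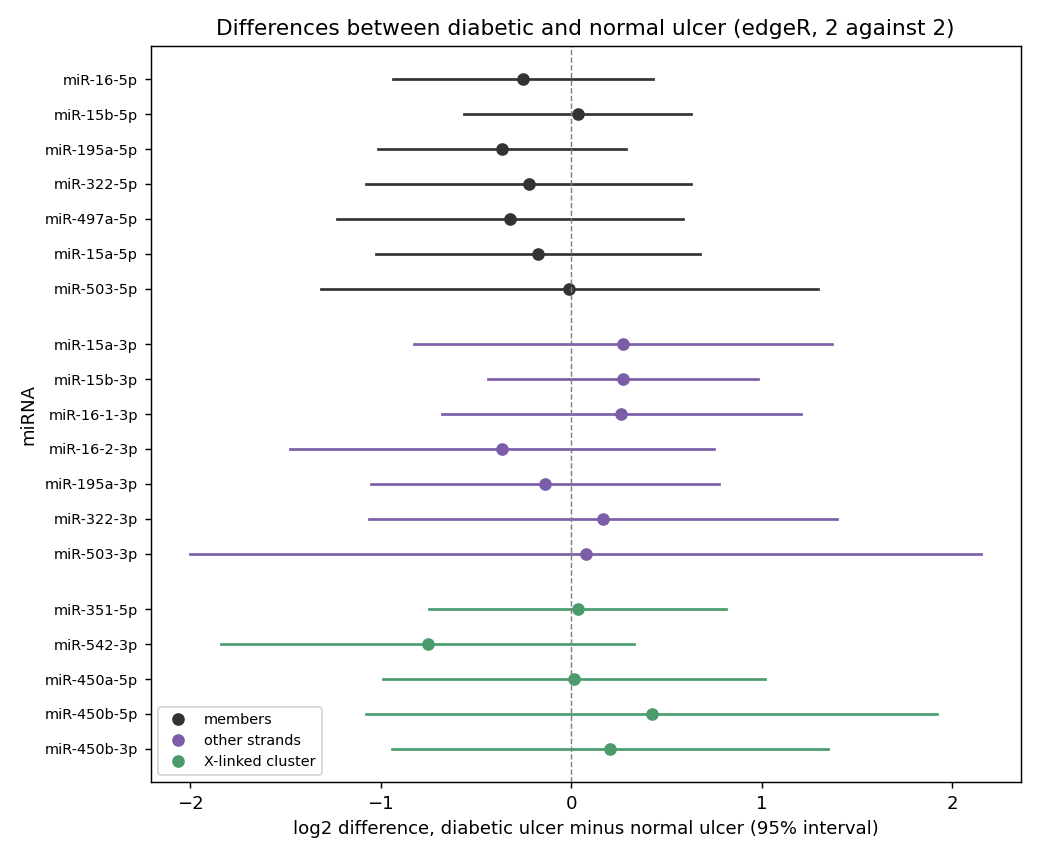
Log2 difference, diabetic ulcer minus normal ulcer, from edgeR over 2 libraries per group, with 95% intervals as lines, for the 7 members, the other strands of their precursors and the other tested miRNAs of the X-linked cluster. Every interval shown includes 0, and those of the members run from -1.31 at the lowest to 1.29 at the highest.

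The authors' deposited table gives no call for the members either. It runs from normal over diabetic ulcer as labelled, the reverse of the differences above, and was made with all 6 columns. In the authors' deposited table the log2 values were 0.50 for miR-16-5p, 0.59 for miR-15a-5p, 0.44 for miR-195a-5p and 0.24 for miR-497a-5p. For miR-15b-5p, miR-322-5p and miR-503-5p the authors' deposited table has -0.14, -0.24 and -0.74. The q-value of all 7 was 0.991 in the authors' deposited table, whose p-values for the members start at 0.135.

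The 7 members were compared by their lowest and highest libraries. On the TMM scale miR-15a-5p, miR-16-5p and miR-195a-5p were lowest in diabetic ulcer 2 and highest in normal ulcer 1. The keratinocyte and epithelial list had the same lowest and highest libraries, at 19319 CPM in diabetic ulcer 2 and 52548 CPM in normal ulcer 1, and its part in the result was not tested. Levels were then taken relative to each miRNA's own mean over the 4 libraries. Between pairs of miR-15a-5p, miR-16-5p and miR-195a-5p they differed by a root mean square of 0.10 to 0.16 on the log2 scale. miR-322-5p and miR-503-5p were lowest in diabetic ulcer 1 but highest in different libraries, normal ulcer 2 and diabetic ulcer 2. They differed from each other by 0.27 and from miR-16-5p by 0.44 and 0.64 on that measure. miR-15b-5p was also lowest in diabetic ulcer 1 and lay 0.27 from miR-322-5p. miR-497a-5p was also highest in normal ulcer 1 and lay 0.18 from miR-195a-5p, so the members formed no sharp groups. By library totals normal ulcer 2 was the lowest for all 7 members, while differences between members within a library do not depend on the scaling. The ratio of miR-503-5p to miR-16-5p was 0.00529 and 0.0190 in diabetic ulcer 1 and 2, against 0.00885 and 0.0101 in normal ulcer 1 and 2. For miR-322-5p and miR-503-5p the spread between the diabetic ulcer libraries was wider than the distance between the group means. The same held for miR-15a-5p, miR-15b-5p and miR-16-5p on the TMM scale.

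In the X-linked cluster the first and last mature sequences start 6298 bases apart. The cluster also holds miR-351, which has the seed of the miR-125 family, miR-542 and the miR-450 genes. Beside both strands of miR-322 and miR-503, whose levels prompted the comparison, 5 miRNAs from it were tested. On the TMM scale the 5 were higher in diabetic ulcer 2 than in diabetic ulcer 1, by a median of 0.96 on the log2 scale, as were 53.7% of all tested miRNAs. One of them, miR-450b-3p, was level at 0.02, with 15 counts in both libraries, and it was lower in diabetic ulcer 2 under the other scalings (RLE, upper quartile and library totals). In the normal ulcer libraries 4 of the 5 were higher in library 2 than in library 1, by a median of 0.13 over the 5, where 41.8% of all tested miRNAs were. By library totals 0 of the 5 were higher in normal ulcer 2, so the order there depends on the scaling. The cluster may be made from a common transcript, so these are not separate observations.

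Several marker lists were also higher in diabetic ulcer 2 than in diabetic ulcer 1. Leukocyte miRNAs (4 of 4 listed) summed to 596 and 1370 CPM in diabetic ulcer 1 and 2, against 706 and 863 CPM in normal ulcer 1 and 2. Endothelial miRNAs (2 of 2 listed) summed to 9977 and 18279 CPM in diabetic ulcer 1 and 2, against 11779 and 15826 CPM in normal ulcer 1 and 2. Both lists had the order of miR-503-5p, lowest in diabetic ulcer 1 and highest in diabetic ulcer 2. Stromal miRNAs (5 of 5 listed) summed to 43546 and 50430 CPM in diabetic ulcer 1 and 2, against 50652 and 42113 CPM in normal ulcer 1 and 2. Within the stromal list miR-199a-5p went against the sum, at 3976 and 2934 CPM in diabetic ulcer 1 and 2. So did miR-214-3p, at 236 and 162 CPM in diabetic ulcer 1 and 2, so the stromal sum does not speak for the whole list. The keratinocyte and epithelial list, given above, went the other way and was lower in diabetic ulcer 2 than in diabetic ulcer 1. The part of these cell types in the result was not tested.

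Between the groups the cluster showed no call. Of 9 other miRNAs of the cluster named for this comparison, 8 were listed and 5 passed the filter, of which 4 were above 0 and 1 below 0 and 0 were called by edgeR. miR-542-3p had 23.0 and 45.2 CPM in diabetic ulcer 1 and 2, against 45.4 and 69.7 CPM in normal ulcer 1 and 2. Diabetic ulcer 1 was far below the rest, and diabetic ulcer 2 lay level with normal ulcer 1. Its log2 difference was -0.75 ± 0.43 (SE; edgeR's adjusted p = 0.999). miR-450b-5p had 6.69 and 22.2 CPM in diabetic ulcer 1 and 2, against 11.3 and 10.3 CPM in normal ulcer 1 and 2, so that, as for miR-503-5p, the diabetic ulcer libraries were the lowest and the highest. For miR-351-5p the values were 37.0 and 53.1 CPM in diabetic ulcer 1 and 2 and 40.6 and 47.4 CPM in normal ulcer 1 and 2, and for miR-450a-5p they were 27.3 and 54.5 CPM in diabetic ulcer 1 and 2 and 38.6 and 42.4 CPM in normal ulcer 1 and 2.

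**Figure D3:**
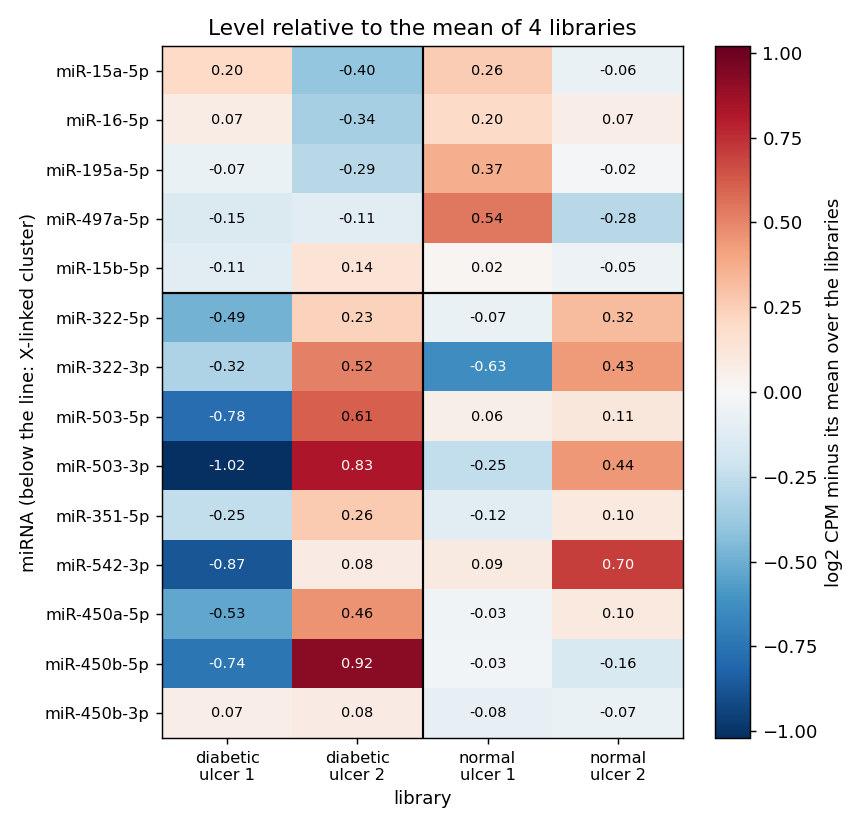
Level of the members and of the X-linked cluster in each library, as log2 CPM (with 0.5 added) minus the mean over the 4 libraries, red above and blue below. Below the line the X-linked miRNAs are mostly low in diabetic ulcer 1 (-1.02 for miR-503-3p) and high in diabetic ulcer 2 (0.92 for miR-450b-5p), whereas miR-15a-5p and miR-16-5p are low in diabetic ulcer 2.

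Markers of other cell types were set beside these levels. The skeletal muscle list (9 of 9 listed) summed to 300087 and 444019 CPM in diabetic ulcer 1 and 2, against 128942 and 1059290 CPM in normal ulcer 1 and 2. These values are on the TMM scale, where a sum is not a share of the library. Nearly all of the sum was miR-1a-3p, at 289473 and 438575 CPM in diabetic ulcer 1 and 2. miR-206-3p went against the sum in diabetic ulcer, at 8122 and 2849 CPM in libraries 1 and 2. In normal ulcer 1 and 2 it went with the sum, at 4686 and 13226 CPM. Red blood cells are known to hold much miR-16. Erythroid miRNAs (4 entries listed) summed to 933 and 1055 CPM in diabetic ulcer 1 and 2 and 600 and 1601 CPM in normal ulcer 1 and 2. Most of that sum came from entries other than the defining miR-451a and miR-144-3p. miR-451a had 189 and 260 CPM in diabetic ulcer 1 and 2, against 195 and 322 CPM in normal ulcer 1 and 2. miR-144-3p lay at 1.76 to 4.77 CPM. The sum was lowest in normal ulcer 1, whereas miR-451a was lowest in diabetic ulcer 1, so the sum does not speak for miR-451a. No marker list separated the groups, and none of the defining markers was at 0. The part of red blood cells in the level of miR-16-5p was not tested. Without the muscle list the median log2 difference of the members was -0.17, and without the erythroid list it was -0.23. Without the muscle list the median of all tested miRNAs also moved up, by 0.06 to 0.05, so the change was not particular to the members.

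Each precursor yields a strand from either arm of its hairpin, and the 5p strand is the one that carries the family seed. The hairpins of miR-15b and miR-322 are shown because both strands of each were read often, with the mature strands in capitals (RefSeq, GRCm38.p6).
Mir15b: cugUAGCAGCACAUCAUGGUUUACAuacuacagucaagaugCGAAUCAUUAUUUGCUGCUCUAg
Mir322: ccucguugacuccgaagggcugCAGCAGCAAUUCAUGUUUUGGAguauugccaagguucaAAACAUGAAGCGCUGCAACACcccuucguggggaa

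The 5p strand was the more abundant one at each of the 6 precursors compared, in all 4 libraries, to very different degrees. miR-16 gave 71.9 and 57.6 reads of its 5p strand per read of both 3p strands in diabetic ulcer 1 and 2, against 70.9 and 109 in normal ulcer 1 and 2. miR-322 gave 2.01 and 1.85 in diabetic ulcer 1 and 2, against 3.35 and 2.08 in normal ulcer 1 and 2. miR-322-3p thus reached 48.2 CPM in diabetic ulcer 2, more than miR-15a-5p or miR-497a-5p in that library. It had 26.8 and 48.2 CPM in diabetic ulcer 1 and 2, against 21.5 and 45.5 CPM in normal ulcer 1 and 2.

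Strand ratios were lower in both diabetic ulcer libraries than in both normal ulcer libraries at 3 of 6 precursors, miR-15a, miR-15b and miR-322, and higher at 0 of 6. Among 119 precursors with both strands tested, 17.6% were lower in this way and 13.4% higher. For miR-15b the ratio was 7.55 and 9.40 in diabetic ulcer 1 and 2, against 10.2 and 9.68 in normal ulcer 1 and 2. For miR-15a it was 15.3 and 10.5 in diabetic ulcer 1 and 2, against 15.6 and 21.9 in normal ulcer 1 and 2, on 14 to 35 counts of the 3p strand.

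The log2 difference of the ratio, diabetic minus normal, was -0.55 for miR-15a, -0.24 for miR-15b and -0.46 for miR-322, with an SD within groups of 0.36, 0.16 and 0.35. Over the 119 precursors the median difference was -0.04. In each of the 3 the nearest libraries of the groups lay close together. The 3p strand made up 9.62% of miR-15b reads in diabetic ulcer 2 (95% Wilson interval 8.72 to 10.6) and 9.36% in normal ulcer 2 (8.29 to 10.6), so the nearest libraries were not distinguishable by counting. The same held for miR-322, with 33.3% in diabetic ulcer 1 (30.2 to 36.4) and 32.4% in normal ulcer 2 (29.8 to 35.2), and for miR-15a, with 6.14% in diabetic ulcer 1 (4.38 to 8.54) and 6.01% in normal ulcer 1 (4.36 to 8.25). The strand ratios of miR-16, miR-195a and miR-503 had overlapping groups. Of the 7 other strands tested, 5 were above 0 and 2 below 0 and edgeR called 0. miR-15b-3p was the 1 with both diabetic ulcer libraries higher, at 35.0 and 33.4 CPM in diabetic ulcer 1 and 2 against 28.2 and 28.4 CPM in normal ulcer 1 and 2, an order that 9.03% of all tested miRNAs showed. Its log2 difference was 0.27 ± 0.28 (SE), and its groups overlapped by library totals.

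**Figure D4:**
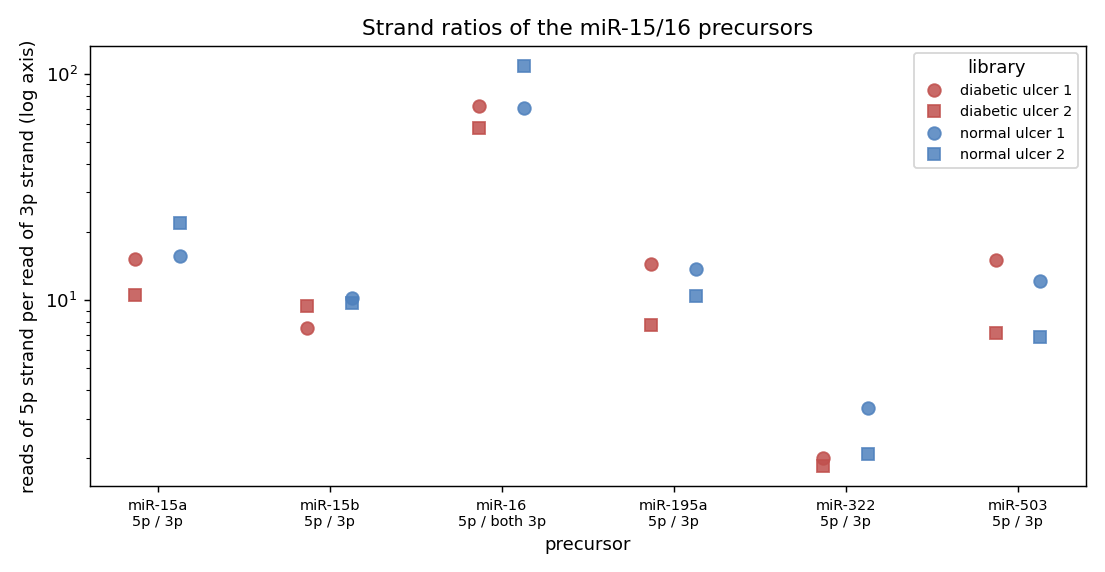
Reads of the 5p strand per read of the 3p strand for 6 precursors in each library, on a log axis, with diabetic ulcer left of normal ulcer. The ratio lies near 2 to 3 for miR-322 (1.85 to 3.35) and at 57.6 to 109 for miR-16, whose 5p reads come from 2 gene copies and are set against both 3p strands.

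The 3p strands also separate the 2 copies of miR-16, which the 5p strand cannot. These sequences are shown because they differ between the copies.
miR-16-1-3p: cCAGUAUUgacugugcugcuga
miR-16-2-3p: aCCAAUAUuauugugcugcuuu

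miR-16-1-3p, from chromosome 14, was the more abundant of the 2 in all 4 libraries. It made up 79.0% of the reads of both in diabetic ulcer 1 (95% Wilson interval 73.8 to 83.4) and 85.9% in diabetic ulcer 2 (81.1 to 89.6), against 75.0% in normal ulcer 1 (70.0 to 79.4) and 75.4% in normal ulcer 2 (67.6 to 81.8). Both diabetic ulcer shares were higher, and the interval of diabetic ulcer 1 overlapped those of both normal ulcer libraries. The interval of diabetic ulcer 2 overlapped that of normal ulcer 2 but not that of normal ulcer 1. How often other gene copies show this order was not counted. Both diabetic ulcer libraries were higher for 9.03% of tested miRNAs by TMM-scaled level and for 13.4% of 119 precursors by strand ratio. The partners on the 2 chromosomes stood the other way round. miR-15b-5p, from chromosome 3, exceeded miR-15a-5p, from chromosome 14, by 5.97 and 10.8 times in diabetic ulcer 1 and 2 and by 6.29 and 7.50 times in normal ulcer 1 and 2.

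Among 266 other tested miRNAs with a mean of at least 10 CPM, those nearest to the members' mean profile were let-7g-5p, miR-140-3p and miR-184-3p. Their root mean square distance from it was 0.03, 0.05 and 0.05 on the log2 scale over the 4 libraries. On so few libraries 20 miRNAs came within 0.1, whereas the members themselves lay 0.13 (miR-15b-5p) to 0.44 (miR-503-5p) away from their own mean.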

How the data were processed

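Small RNA from skin tissue was extracted with a mirVana kit and sequenced on an Illumina platform, per the labels' protocols. GRCm38 and mm10, 2 names of 1 build, are given per the submitters' processing notes. No source used here gives the aligner, the counting tool or the miRNA release, and they are not given here. The authors deposited whole-number read counts per mature miRNA, not normalized. The authors' TPM values divide counts by a library total larger than that of the listed miRNAs. The authors' comparison table holds a ratio (fold), its log2 value, p-values and q-values from DESeq2, unpaired per the file headers, beside base means and lengths, which are other values.

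Samples were grouped by title, and columns matched to titles. The columns numbered 3 stayed out because they follow from the others. edgeR 4.0.16 (R 4.3.3; glmQLFit, glmQLFTest, TMM, filterByExpr, group only) was fitted to all miRNAs of 4 libraries, with Benjamini-Hochberg adjustment over 443 tested miRNAs and a threshold of 0.05. The SE was the log2 difference over the square root of F. A count of 0 allows up to 3 counts, 0.271 and 0.275 CPM in diabetic ulcer 1 and 2 and 0.252 and 0.358 CPM in normal ulcer 1 and 2. Code was tested on simulated data. Alternatives were DESeq2 1.42.0, limma 3.58.1 (voom, and the authors' TPM with pseudocounts of 1 and 10), other scalings and filters, all 6 columns, a replicate block, removal of muscle or erythroid miRNAs, and leaving out each library. The named miRNAs were the 7 members, their other strands, the X-linked cluster, entries with the shared bases 2 to 7, and the 3 nearest profiles. Members and lists were chosen with earlier results of these data known.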

Additional observations from a re-analysis of the deposited data

How the results depend on the processing

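No member was called under any of the 17 alternatives, and 105 of 119 member differences kept their sign. The count of called miRNAs was 0 except for 1 by library totals, and it ran from 0 to 6 when single libraries were left out (6 without normal ulcer 1). Over all 6 columns miR-322-5p was at 0.16 and miR-503-5p at 0.21 (log2, diabetic minus normal). miR-503-5p was also positive by library totals (0.12), with no filter (0.040), with a mean CPM of at least 10 (0.021) and without the muscle list (0.053). Leaving out single libraries gave -0.50 to 0.16 for miR-15a-5p, -0.032 to 0.16 for miR-15b-5p, -0.46 to 0.0035 for miR-16-5p, -0.47 to -0.16 for miR-195a-5p, -0.57 to 0.098 for miR-322-5p, -0.57 to 0.15 for miR-497a-5p and -0.83 to 0.54 for miR-503-5p. The summed level, -0.23 on the log2 scale, was 0.038 by library totals, where the median of all tested miRNAs moved up by 0.19, and ran from -0.35 without diabetic ulcer 1 to -0.039 without diabetic ulcer 2. The cause was not tested. With the replicate block edgeR called 0 miRNAs, with 20 at an unadjusted p under 0.05 against 4 without it. The numbers are not shown to pair the libraries: library 1 minus library 2 correlated between groups at r = 0.447 across 443 miRNAs, which are not independent replicates. The lowest counts, 7 for miR-503-3p and 14 for miR-15a-3p, limit their ratios most.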
